A study of Mus musculus with 2 samples.

Results

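The genes described are 45 heat shock proteins and chaperones of the mouse: the cytosolic HSP70, HSP110, HSP90, J protein and small heat shock protein families with their cochaperones, 4 subunits of the cytosolic chaperonin CCT, the chaperones of the endoplasmic reticulum (ER) and of mitochondria, and the heat shock factors Hsf1 and Hsf2. They were taken by name: a probe was assigned to a member when its gene name on the array, or the current symbol of its RefSeq accession, was on the list. Of the 45 genes, 44 had a probe of their own among the 27240 genes named on the array, with 58 probes in all. Hspa1b was the exception, because the probe read for Hspa1a carries accessions of both Hspa1a and Hspa1b, so values given for Hspa1a can come from either gene. All 44 were measured, meaning that at least 1 pool was marked by the scanner software as well above background on both arrays, as were 15682 of the 27240 genes.

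RNA of CX3CR1high CD11b+ CD11c+ cells isolated from the lamina propria of the large intestine was compared with RNA of Ly6c+ CD11b+ blood monocytes. The colon cells came from CX3CR1gfp/+ mice, which carry a GFP reporter in 1 allele of the fractalkine receptor gene Cx3cr1, and the monocytes from C57BL/6J mice; each RNA was a pool. Both pools were hybridised together to each of 2 Agilent arrays, which carry 60-base probes for genes of the whole mouse genome. On array 1 the colon pool carried the red dye Cy5 and the blood pool the green dye Cy3; array 2 had them the other way round. An n of 10 is given for the colon population and of 6 for the monocytes, with no word on what is counted, and the ages of the mice are not given in the sources used here. The 2 arrays were counted as 1 replicate of 1 pool against 1 pool, so no difference between the pools has a test, and each SD below is over the 2 arrays and covers technical spread only. Tissue, strain, cell type and isolation procedure all differ between the pools and cannot be told apart. In such bulk RNA, fewer cells of a type and less RNA per cell cannot be told apart either.

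Heat shock proteins bind unfolded or partly folded proteins and keep them from aggregating. HSP70 proteins work in cycles of ATP hydrolysis that J proteins start and nucleotide exchange factors, such as HSP110 and BAG proteins, end, while HSP90 completes the folding of client proteins such as kinases and steroid receptors. Some family members are made at all times and others mainly after stress, when heat shock factor 1 binds heat shock elements in their promoters; the ER has its own response to unfolded protein, which acts through ER stress elements.

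The probe read for Hspa1a, at chr17:35107117-35107176 (build mm9, minus strand), and that read for its neighbour Hspa1l, at chr17:35115629-35115688 (plus strand), are shown because these genes are near relatives. Capitals mark the 42 of 57 overlapping bases (73.7%) that are identical when the probes are laid side by side without gaps.
Hspa1a probe: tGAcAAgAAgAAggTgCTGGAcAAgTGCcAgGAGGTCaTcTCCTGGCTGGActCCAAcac
Hspa1l probe: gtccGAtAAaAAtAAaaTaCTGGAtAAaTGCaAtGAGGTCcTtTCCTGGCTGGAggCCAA

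The promoter stretches that follow (RefSeq, build GRCm38.p6, 5′ to 3′ in the direction of the gene) are shown because they hold motif matches of members on which the comparison of cytosolic, mitochondrial and ER chaperones turns. Capitals in the first group mark matches to the heat shock element. It was searched on both strands as GAANNTTC, with 2 units, and, with 3 units, as GAANNTTC followed by NN and GAA; the longer motif contains the shorter.
Hspa1a, chr17:34972228-34972285, minus strand: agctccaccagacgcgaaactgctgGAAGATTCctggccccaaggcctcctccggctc
Hspb1, chr5:135887777-135887854, plus strand: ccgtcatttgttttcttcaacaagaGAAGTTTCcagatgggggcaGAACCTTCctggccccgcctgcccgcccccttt
Dnaja1, chr4:40722319-40722376, plus strand: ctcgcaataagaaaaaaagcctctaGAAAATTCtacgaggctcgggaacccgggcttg
Hspe1, chr1:55088034-55088101, plus strand: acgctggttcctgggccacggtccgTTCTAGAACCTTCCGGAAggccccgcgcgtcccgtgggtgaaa

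In the second group, all of ER chaperones, capitals mark matches to the ER stress element, searched on both strands as CCAAT, then any 9 bases, then CCACG.
Hspa5, chr2:34772000-34772068, plus strand: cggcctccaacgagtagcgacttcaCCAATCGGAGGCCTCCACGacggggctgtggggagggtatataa
Hsp90b1, chr10:86705508-86705681, minus strand: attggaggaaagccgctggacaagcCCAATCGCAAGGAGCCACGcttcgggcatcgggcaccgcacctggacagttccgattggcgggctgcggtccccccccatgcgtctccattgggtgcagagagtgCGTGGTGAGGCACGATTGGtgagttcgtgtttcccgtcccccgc
Dnajc3, chr14:118937802-118937870, plus strand: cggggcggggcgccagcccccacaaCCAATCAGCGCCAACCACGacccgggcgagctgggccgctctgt
Pdia6, chr12:17266466-17266534, plus strand: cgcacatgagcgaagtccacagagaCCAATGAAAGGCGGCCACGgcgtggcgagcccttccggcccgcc

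Many of the listed chaperones were at a higher level in colon RNA, and none passed the same size rule in the blood pool. Of the 44 measured members, 20 were at least 2-fold higher in the colon pool on each array, a share of 45.5%, whereas 14.2% of all 15682 measured genes passed that rule. Of 77 other measured chaperone genes, described below, 11.7% passed it: 27.3% of those of the ER, 7.32% of cytosolic and 0% of mitochondrial ones. Both lists were chosen with earlier results of these data known, so this contrast describes these lists and not chaperones at large. None of the 44 members was at least 2-fold lower on each array, against 4.46% of all measured genes. The median log2 ratio of colon over blood was 0.90 ± 0.11 (SD of the medians on the 2 arrays, 0.78 and 0.93) for the members and 0.06 for all measured genes, and 37 of the 44 lay above 0 on both arrays. The rule also asks that the brighter pool be well above background on both arrays; it is a rule of size, not a test. The other 24 members had log2 ratios from -0.33 to 0.95, and the 20 past the rule from 1.09 to 5.25, of which 12 were at least 4-fold higher.

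**Figure D1:**
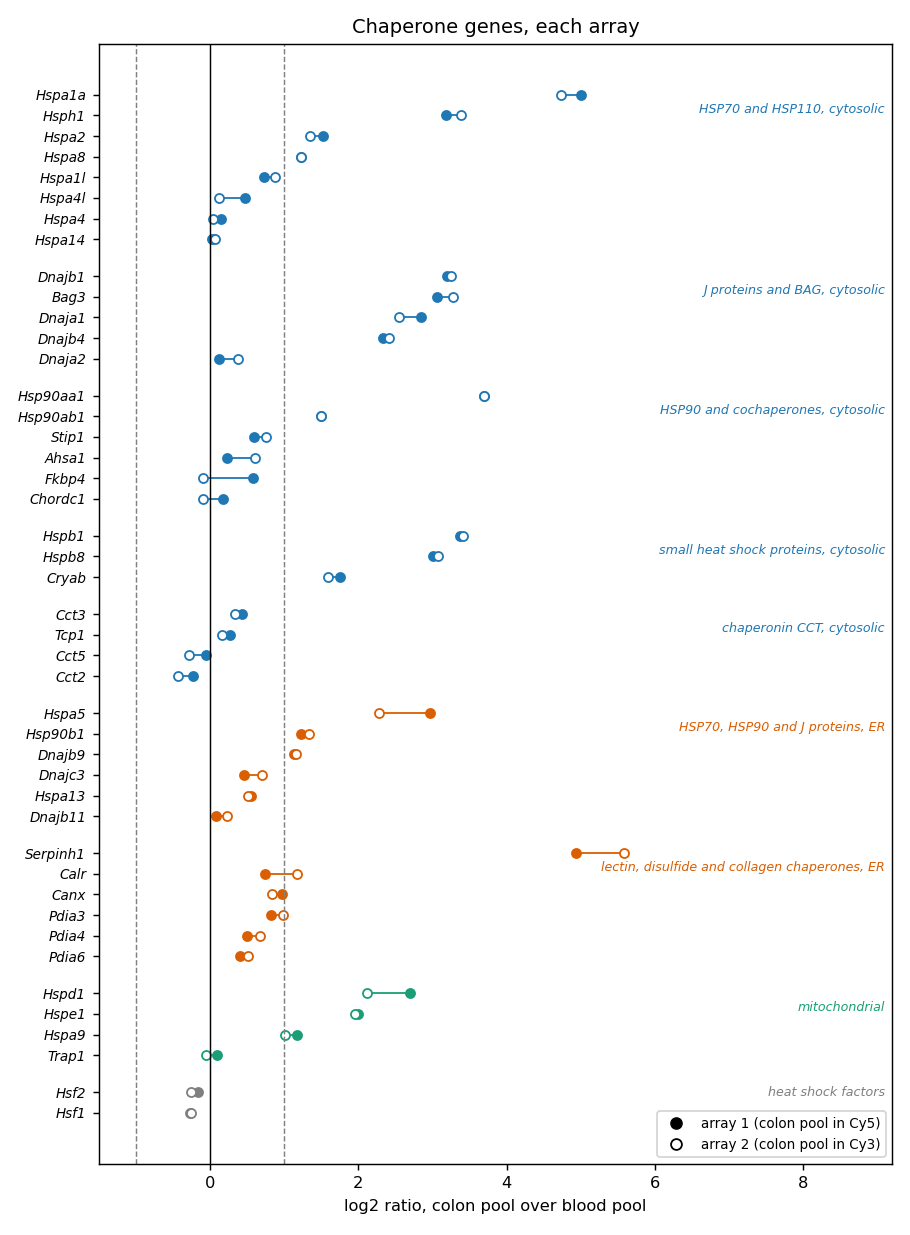
Log2 ratio of colon pool over blood pool (horizontal axis) for each of the 44 measured chaperone genes, by family; filled circles are array 1, open circles array 2, lines join the arrays and dashed lines mark 2-fold. Hspa1a at 4.86 and Serpinh1 at 5.25 lie farthest to the right, 20 genes lie right of the upper dashed line on both arrays, and no gene lies left of the lower one.

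The scale of these ratios depended on how the arrays were centred. Centring each array on its median spot, without a fit to intensity, shifted the median of all measured genes from 0.06 to -0.28 and left 9 members at least 2-fold higher, 20.5% of the 44, against 7.26% of all measured genes. The 11 members that lost the call did so on array 2, and 5 of them kept a mean past 2-fold: Dnaja1 at 1.88, Hspa5 at 1.77, Hspd1 at 1.66, Hspe1 at 1.18 and Cryab at 1.16. The 9 that passed were Hspa1a, Hsph1, Dnajb1, Dnajb4, Bag3, Hsp90aa1, Hspb1, Hspb8 and Serpinh1. No member passed the rule in the other direction, although the mean of Cct2 was -1.10. The members' median was then 0.19, which is 0.47 above that of all genes, compared with 0.84 above it in the values used here. Directions given below for members near 0 therefore hold only for the processing used here, and 14 of the 44 changed sign under at least 1 alternative.

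By compartment, 13 of 26 cytosolic members (50%), 4 of 12 ER members (33.3%) and 3 of 4 mitochondrial members (75%) were at least 2-fold higher on each array. The share over all measured genes was 14.2%. Under median centring these counts were 8 of 26, 1 of 12 and 0 of 4, against 7.26% of all measured genes. The ER share was then close to that of all genes and the mitochondrial share below it. The order of the compartments by share thus depended on the centring. Their order by median did not change: it was mitochondrial, cytosolic and ER in both cases. The median log2 ratio was 1.02 ± 0.06 for the cytosolic members (0.98 and 1.05 on arrays 1 and 2), 0.90 ± 0.09 for the ER members (0.78 and 0.91) and 1.53 ± 0.07 for the mitochondrial members (1.58 and 1.48). The cytosolic median exceeded the ER median by 0.12 (0.20 and 0.15 on the 2 arrays), and by 0.05 to 0.48 under other processing. Mitochondrial members lay 0.63 above ER members (0.80 and 0.57 on the 2 arrays) and 0.51 above cytosolic members (0.61 and 0.42). The last difference was 0.18 with the scanner software's ratios and 0.27 under median centring, and the mitochondrial median rests on 4 genes. Among the other chaperones described below, the mitochondrial median was the lowest of the compartments, at -0.10. Cytosolic members ran from -0.33 to 4.86 and ER members from 0.16 to 5.25, and all 12 ER members lay above 0 on both arrays.

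**Figure D2:**
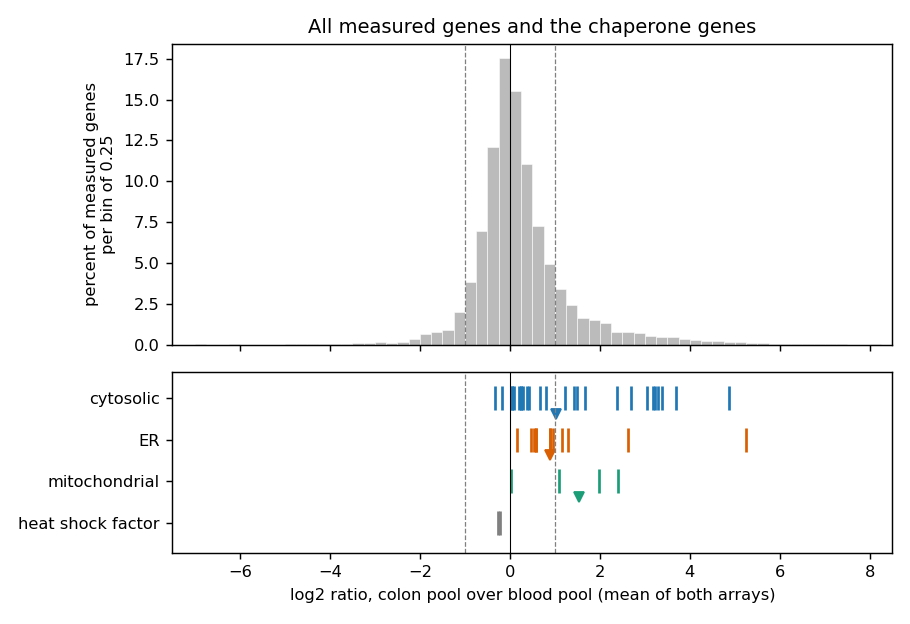
Upper panel: share of the 15682 measured genes (percent, bins of 0.25) by mean log2 ratio of colon pool over blood pool. Lower panel: each measured chaperone gene as a tick, by compartment, with a triangle at the median (1.02 cytosolic, 0.90 ER, 1.53 mitochondrial); dashed lines mark 2-fold, and the 2 heat shock factors lie just left of 0.

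Among the cytosolic HSP70 and HSP110 proteins, 4 of 8 measured members were at least 2-fold higher, and the stress-inducible HSP70 had a far larger ratio than the constitutive one. For Hspa1a, the stress-inducible HSP70, the mean spot signal was 38839 scanner units in the colon pool and 812 in the blood pool on array 1, and 13949 and 2289 on array 2. The colon pool was brighter in both dyes, and after correction the log2 ratios were 5.00 and 4.73, a mean of 4.86 ± 0.20 (SD, n = 2 arrays) or 29.1-fold. Hspa8, the constitutive HSP70 of the cytosol, gave 69459 in colon and 19029 in blood on array 1, then 23813 and 53771 on array 2. Its pools thus changed order with the dye, and the corrected log2 ratio was 1.22 ± 0.01, or 2.33-fold; its other probes gave 1.22 and 1.57. Within the arrays, the log2 ratio of Hspa1a exceeded that of Hspa8 by 3.79 and 3.50.

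Hsph1, the stress-inducible HSP110 and a nucleotide exchange factor for HSP70 (probe at chr5:150419744-150419803, mm9), read 18296 in the colon pool and 1368 in the blood pool on array 1, and 7541 and 3097 on array 2. Its log2 ratio was 3.28 ± 0.15, or 9.73-fold, and a second probe gave 3.31. Hspa4, another HSP110 protein, read 8966 and 5465 on array 1 and 2898 and 12521 on array 2, a log2 ratio of 0.10 ± 0.08 with other probes at -0.02 and -0.20. The pair differed by 3.19 ± 0.23. Hspa2, an HSP70 best known from male germ cells, read 1043 in colon and 246 in blood, then 444 and 553, and its log2 ratio was 1.43 ± 0.12. The remaining members of the family did not pass the size rule: Hspa14, a ribosome-associated HSP70, at 0.05 ± 0.03 (4713 and 3181, then 1735 and 6979), Hspa4l at 0.30 ± 0.25, and Hspa1l at 0.81 ± 0.10. Hspa1l was dim, with 152 in colon and 61.3 in blood on array 1 and 89.8 and 57.4 on array 2, where the blood pool was not well above background, and its log2 ratio reached 2.39 under another processing. Its probe shares the bases shown above with that of Hspa1a; whether Hspa1a RNA adds to its signal was not tested.

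J proteins and the exchange factor Bag3 had 4 of 5 members at least 2-fold higher, with a median log2 ratio of 2.70. Dnajb1, the main stress-inducible J protein of the cytosol (probe at chr8:86135660-86135719, mm9), read 58880 in the colon pool and 4212 in the blood pool on array 1, and 25062 and 12964 on array 2. Bag3, which couples HSP70 to small heat shock proteins and to autophagy (probe at chr7:135690281-135690340, mm9), gave 18015 against 1464 and then 8062 against 3638. Both were brighter in the colon pool whichever dye it carried, with log2 ratios of 3.22 ± 0.04 for Dnajb1 and 3.17 ± 0.15 for Bag3. Dnaja1, a farnesylated J protein, read 73692 and 6612, then 27105 and 23624, and its log2 ratio was 2.70 ± 0.21; a second probe gave 1.81. Its close relative Dnaja2 read 2263 and 1455, then 1010 and 3061, and stayed at 0.25 ± 0.18, 2.45 ± 0.40 below Dnaja1. Dnajb4, at 1492 against 196 and 584 against 331, had a log2 ratio of 2.37 ± 0.05.

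The cytosolic HSP90 pair was split in the same manner, and the cochaperones of HSP90 lay near the bulk of genes. Hsp90aa1, the inducible HSP90 (probe at chr12:111929248-111929307, mm9), read 60410 in the colon pool and 3091 in the blood pool on array 1, and 25544 and 9645 on array 2. Hsp90ab1, the constitutive one (probe at chr17:45704788-45704847, mm9), gave 81652 and 18348, then 28312 and 53880. The log2 ratio was 3.69 on each array for Hsp90aa1, or 12.9-fold, and 1.49 ± 0.01 for Hsp90ab1, a difference of 2.19 ± 0.01. None of the 4 cochaperones passed the size rule. Stip1, which links HSP70 to HSP90, was at 0.67 ± 0.11, and Ahsa1, which activates the HSP90 ATPase, at 0.42 ± 0.26. The prolyl isomerase Fkbp4 differed in sign between the arrays, at 0.58 and -0.10, as did Chordc1, at 0.18 and -0.10 (1808 and 1110, then 674 and 2828).

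All 3 small heat shock proteins, which hold unfolded proteins without using ATP, were at least 2-fold higher in the colon pool. Hspb1 (probe at chr5:136365366-136365425, mm9) read 36013 in colon and 2319 in blood on array 1, and 13921 and 6038 on array 2, a log2 ratio of 3.39 ± 0.02. Hspb8, the partner of Bag3, gave 694 and 297 in the colon pool, while the blood pool, at 49.3 and 50.8, was not well above background on either array. Hspb8 was therefore at least 8.26-fold higher in this processing, a bound that sets the blood pool, on each array, at whichever was higher: its own signal or the dimmest probe counted as well above background. The bound equals the fitted log2 ratio of 3.05, which was 2.86 under median centring. Cryab read 1043 and 210, then 411 and 413, a log2 ratio of 1.67 ± 0.11, but its second probe gave 0.77, short of 2-fold.

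The 4 measured subunits of the chaperonin CCT, a double ring that folds actin and tubulin, did not share in the difference. Their median log2 ratio was 0.02, close to the 0.06 of all measured genes. Cct3 was the highest at 0.38 ± 0.08 (2100 and 1081, then 831 and 2587) and Cct2 the lowest of all members at -0.33 ± 0.14 (9737 and 7700, then 3277 and 20191), with Tcp1 at 0.21 ± 0.08 and Cct5 at -0.17 ± 0.17. The transcripts of the heat shock factors themselves also lay near the bulk. Hsf1, the main activator of the heat shock response, read 986 in colon and 834 in blood on array 1 and 424 and 1875 on array 2, a log2 ratio of -0.27 ± 0.00. Hsf2 read 354 and 277, then 154 and 547, a log2 ratio of -0.21 ± 0.07. Hsf1 is controlled largely at the level of the protein, which these arrays do not measure.

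**Figure D3:**
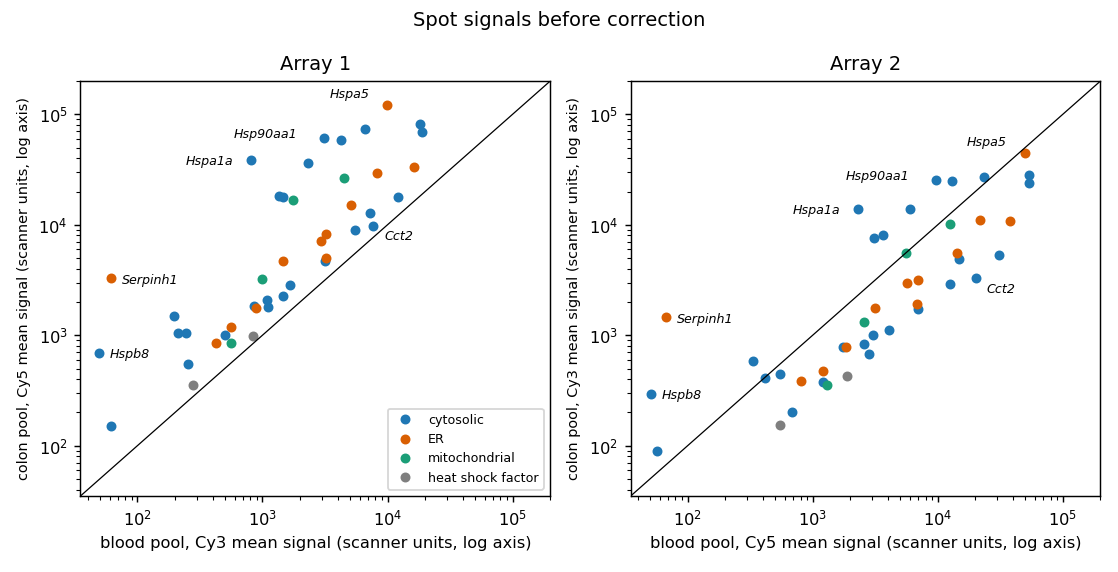
Mean spot signal of the 44 measured chaperone genes before any correction (scanner units, log axes), colon pool against blood pool, on array 1 (left, colon pool in Cy5) and array 2 (right, colon pool in Cy3); the line marks equal signal. Red signals are the brighter ones for most genes, so the cloud lies above the line on array 1 and mostly below it on array 2, while Hspa1a, Hsp90aa1, Serpinh1 and Hspb8 stay above it on both.

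Uncorrected signals gave a coarser view that needs no normalization. In 11 of the 44 members (25%) the colon pool was the brighter one in both dyes, compared with 18.5% of all measured genes, and in 0 members the blood pool was, compared with 18%. The red channel was the brighter in the other 33 on both arrays, so for them the direction on each array rests on the normalization. Of the 20 members past the size rule, 10 were brighter in the colon pool in both dyes: Hspa1a, Hsph1, Dnaja1, Dnajb1, Dnajb4, Bag3, Hsp90aa1, Hspb1, Hspb8 and Serpinh1.

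In the ER, the HSP70, HSP90 and J proteins had 3 of 6 members at least 2-fold higher. Hspa5 (BiP), the HSP70 of the ER and a sensor of unfolded protein there (probe at chr2:34631913-34631972, mm9), read 122067 scanner units in the colon pool and 9994 in the blood pool on array 1 and 44577 and 49800 on array 2. Its log2 ratios of 2.96 and 2.28 gave a mean of 2.62 ± 0.48, or 6.16-fold, with the largest SD of any member together with Fkbp4. Hsp90b1 (GRP94), the HSP90 of the ER, read 29401 and 8267, then 11150 and 21638, and its log2 ratio was 1.28 ± 0.07. Dnajb9, a J protein of Hspa5, gave 4688 and 1473, then 1756 and 3174, with a log2 ratio of 1.15 ± 0.02; a second probe gave 0.98 and 1.38 on the 2 arrays, short of 2-fold on array 1. The other J proteins of the ER were lower: Dnajc3, which also inhibits the kinase PERK, at 0.58 ± 0.17 and Dnajb11 at 0.16 ± 0.11 (4958 and 3223, then 1905 and 6821). Hspa13, a divergent HSP70 of microsomes, was at 0.53 ± 0.03, and its second probe at 0.09.

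Of the 6 ER lectins, disulfide isomerases and collagen chaperones, only Serpinh1 passed the size rule. Serpinh1 (HSP47), the dedicated chaperone of procollagen (probe at chr7:106493971-106494030, mm9), read 3290 in the colon pool and 61.1 in the blood pool on array 1, and 1458 and 67.4 on array 2. Its log2 ratios of 4.93 and 5.58 gave 5.25 ± 0.46, or 38.1-fold, the largest ratio among the members; the blood signal was well above background on array 1 only, so the size of the fold rests on a signal near background. The log2 ratio ran from 4.78 under median centring to 7.39 with the software's ratios. The lectins Calr and Canx, which retain glycoproteins until they are folded, were at 0.95 ± 0.30 and 0.90 ± 0.09. Calr read 7162 and 2936, then 2977 and 5647, and its log2 ratio of 1.17 on array 2 was past 2-fold while that of 0.74 on array 1 was not. The disulfide isomerases followed in the order Pdia3 at 0.90 ± 0.11, Pdia4 at 0.58 ± 0.12 and Pdia6 at 0.46 ± 0.07 (32994 and 16160, then 10843 and 38114). Pdia3 and Canx changed order between the arrays, at 0.82 and 0.97 on array 1 and 0.98 and 0.83 on array 2. Pdia4 lay above Pdia6 on both, at 0.50 and 0.40, then 0.67 and 0.51, but a second probe of Pdia6 gave 0.74.

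In mitochondria, 3 of 4 members were at least 2-fold higher: the chaperonin, its lid and the HSP70. Hspd1 (HSP60), the chaperonin of the matrix (probe at chr1:55134697-55134756, mm9), read 16629 in the colon pool and 1746 in the blood pool on array 1, and 5525 and 5564 on array 2, a log2 ratio of 2.40 ± 0.40 or 5.3-fold. Hspe1 (HSP10), its lid, read 26668 and 4479, then 10216 and 12482, a log2 ratio of 1.97 ± 0.03 with other probes at 1.93 and 1.85. Hspa9 (mortalin), the HSP70 of the matrix, read 3244 and 990, then 1310 and 2575, a log2 ratio of 1.09 ± 0.12. By mean ratio it was the lowest member past the size rule, and Calr, at 0.95, the highest that did not pass. Trap1, the mitochondrial HSP90, read 853 and 561, then 357 and 1301, and lay at 0.02 ± 0.10. None of the 3 mitochondrial members past the size rule passed it under median centring, where their log2 ratios on array 2 were 0.33 for Hspd1, 0.05 for Hspe1 and -0.63 for Hspa9.

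The promoters of the members were compared with the RefSeq promoters of 27025 genes, each covering 250 bases before and 50 after the start site. Of the 45 members, 38 had one. Hsp90aa1, Hsp90ab1, Hspa8, Hspa9 and Cryab, all past the size rule, had none, nor had Hspa13 and Hsf1. A match is a description of the letters in this window and not evidence of binding. The heat shock element of 2 units was found in 9.04% of all genes and in 12 of the 38 members, of which Hspa1b has no value of its own. Among members past the size rule it was in 8 of 15 (Hspa1a, Hsph1, Dnaja1, Bag3, Hspb1, Hspb8, Hspd1 and Hspe1), and among members not past it in 3 of 22 (Fkbp4, Chordc1 and Cct2). The matches of Hsph1, Bag3 and Hspb8 lay after the start site. Dnaja1 and Hspd1 have 3 and 2 promoters here, not all of which hold the match. Within the cytosolic members the counts were 6 of 9 and 3 of 13, and none of the 11 ER members had it. The element of 3 units was in 0.662% of all genes and in 4 members: Hsph1, Chordc1, Hspd1 and Hspe1. Chordc1 had both elements and a log2 ratio of 0.04.

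Members that share promoter sequence are not independent of each other in these counts. The Hspa1a and Hspa1b promoters are identical in 296 of 300 bases (98.7%), and the match of each lies at bases -104 to -97 from the start site, as in the Hspa1a stretch shown above. Hspd1 and Hspe1 lie head to head on chromosome 1 with 215 bases between their start sites, so that 285 bases belong to both promoters and the run of capitals in the Hspe1 stretch lies in both. Their log2 ratios were 2.69 and 1.99 on array 1 and 2.12 and 1.95 on array 2.

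The ER stress element was found in 37 of 27025 genes (0.137%) and in 6 of 11 ER members: Hspa5, Hsp90b1, Dnajc3, Calr, Canx and Pdia6. None of 23 cytosolic and none of 3 mitochondrial members had it. Its CCAAT part alone was in 41.1% of all genes, in 24 of the 38 members and in 10 of the 11 ER members. The 6 genes with it ran from Pdia6 at 0.46 to Hspa5 at 2.62, and the ER members past the size rule without a match in this window were Serpinh1 and Dnajb9.

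**Figure D4:**
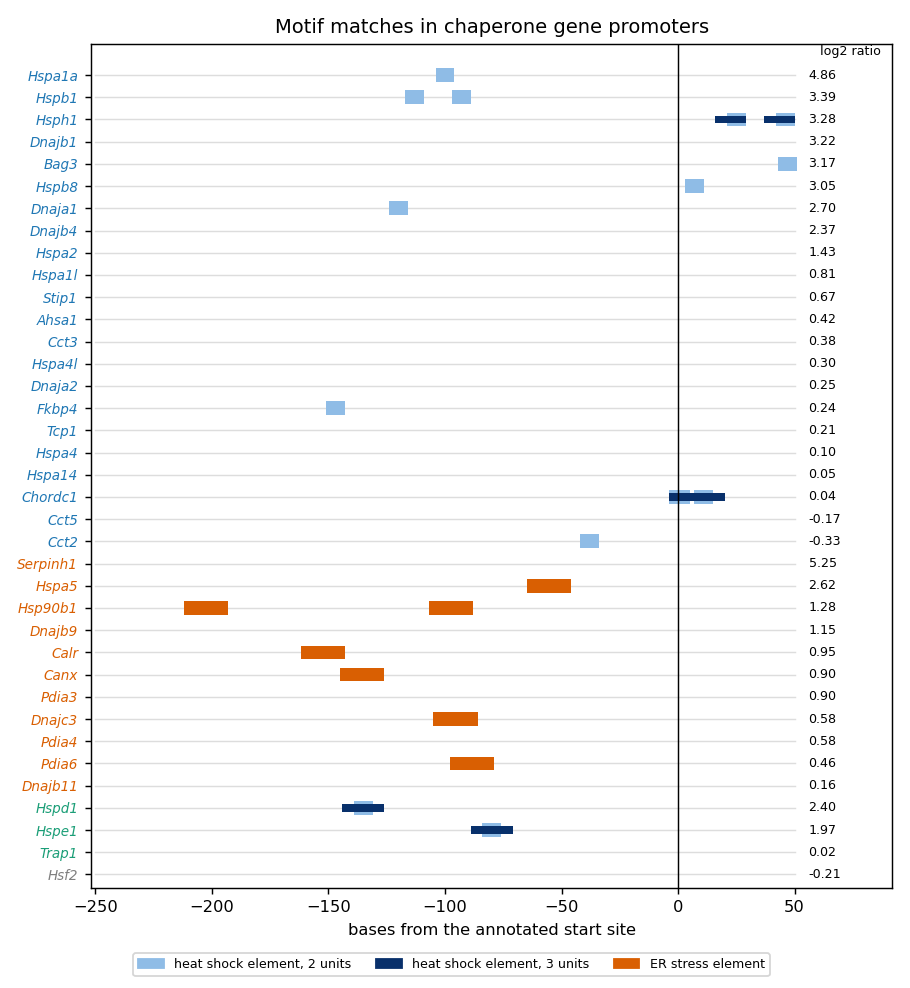
Motif matches in the promoters of the measured chaperone genes that have one in the RefSeq table, by distance from the annotated start site (bases); light blue is the heat shock element of 2 units, dark blue that of 3 units and orange the ER stress element. Numbers at the right are mean log2 ratios of colon over blood, by which genes are ordered within cytosolic (blue names), ER (orange), mitochondrial (green) and heat shock factor (grey) genes; the blue marks lie on cytosolic and mitochondrial genes and the orange marks on ER genes.

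Beyond the members, 87 other chaperone genes were listed, among them further J proteins, the remaining CCT and prefoldin subunits, ER isomerases and mitochondrial proteases and import factors. Of the 77 that were measured, 9 (11.7%) were at least 2-fold higher on each array, against 14.2% of all measured genes, and 0 were lower. Their median log2 ratio was 0.09. The 4 highest were Ppic, an ER cyclophilin, at 4.66 ± 0.32, Fkbp10, an isomerase for procollagen, at 3.19 ± 0.08, and the J proteins Dnajb2 at 3.03 ± 0.21 and Dnaja4 at 2.93 ± 0.17. Second probes of Dnajb2 and Dnaja4, dimmer than the first, gave 0.92 and 0.35. For Ppic the blood pool, at 48.5 and 47.7 scanner units, was not well above background on either array. The other 5, named after their values were seen, were Fkbp9 at 2.53, Fkbp7 at 1.25, Creld2 at 1.24, Sil1 at 1.23 and Dnajb5 at 1.12. By compartment, 6 of 22 ER genes (27.3%), 3 of 41 cytosolic genes and 0 of 14 mitochondrial genes were among the 9. The medians were 0.22 for ER, 0.09 for cytosolic and -0.10 for mitochondrial genes, the reverse of the order among the members.

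The labelled cell types were checked by their markers. All 8 measured genes of the Ly6C-high monocyte list were at least 2-fold lower in the colon pool (Ly6c1 at -3.28, Ccr2 at -3.90), and 9 of 13 genes of the intestinal macrophage list were higher, led by Adamdec1 at 7.43 and Mrc1 at 5.78. Averaged over its probes, Adamdec1 was at 5.52. Of the genes that name the colon cells, Itgax (CD11c) was at 3.35, Cx3cr1 at 0.10 and Itgam (CD11b) at -0.46.

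Markers of other cells were also higher in the colon pool, where 14.2% of all measured genes were at least 2-fold higher on each array. Of 12 fibroblast and smooth muscle genes, 11 were at least 2-fold higher in the colon pool, with a median log2 ratio of 4.00, Dcn at 7.01 and Lum at 6.82. Their summed signal above background was 149153 and 62151 in the colon pool and 1477 and 3608 in the blood pool, where Pdgfra, Myh11 and Des were not well above background on either array and Lum was on array 2 only. Serpinh1 and Fkbp10 serve collagen-making cells, and Cryab and Hspb8 are abundant in muscle. The part of such cells in their ratios, and in that of Ppic, was not tested. Of 9 measured plasma cell genes 7 were higher, with a median of 2.54, Jchain at 5.18 and Mzb1 at 3.65, and summed signals of 73906 and 26266 in colon and 19944 and 53724 in blood. Xbp1 supplied most of the blood sum; over the other 9 genes listed the sums were 44530 and 17183 in colon and 1616 and 4176 in blood. Plasma cells are rich in ER chaperones, and their part in the ER members was not tested; Xbp1, which drives that programme and is also expressed elsewhere, was at -0.03. Epithelial genes were higher in 10 of 12 cases (Krt8 at 4.01, Lgals4 at 3.60), with summed signals of 9129 and 3624 in colon and 425 and 717 in blood. T cell genes were higher in 6 of 8 (Il7r at 4.10, Thy1 at 2.87), at 11273 and 4268 against 1347 and 2267, and endothelial genes in 2 of 9 (Egfl7 at 3.47, Plvap at 2.74), at 6634 and 2757 against 1807 and 3634.

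Immediate early genes, which respond within minutes to activation and to cell isolation, were split. Of 15 measured, 7 were at least 2-fold higher in the colon pool, a larger share than the 14.2% of all measured genes, and 0 were lower. Egr2 at 3.34 and Ier3 at 3.15 led the 7. The median of the 15 was 0.17, near that of all genes. Fos lay at -0.40, and Nr4a1 was the lowest at -1.16 (-0.94 and -1.38), past 2-fold on array 2 only. The summed signal of the listed genes was 311465 and 102268 in the colon pool and 148766 and 372703 in the blood pool. The part of cell isolation in the ratios of the stress-inducible members was not tested.

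**Figure D5:**
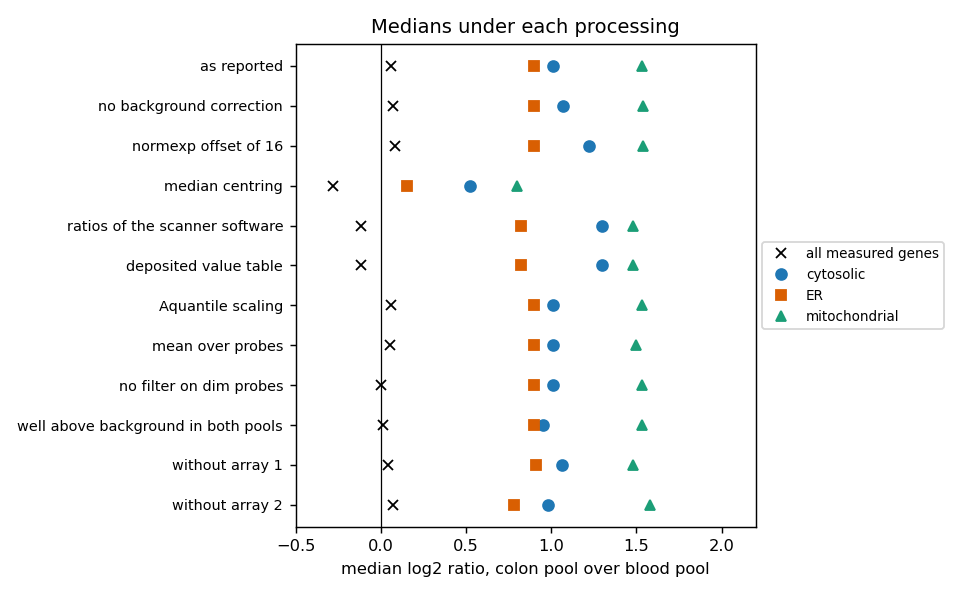
Median log2 ratio of colon over blood for all measured genes (crosses) and for the measured cytosolic (circles), ER (squares) and mitochondrial (triangles) chaperones under each way of processing the arrays. The chaperone medians lie right of the crosses in every row; centring on the median gives the lowest values, 0.52, 0.15 and 0.79, with all genes at -0.28.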

How the data were processed

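For each dye, the deposited scanner files hold a spot's mean intensity and the median intensity of the local background, linear and not normalized, per the file headers. The authors' scanner software added a normalized log10 ratio, red over green, and flags for spots well above background, saturated or outlying. Agilent Feature Extraction is version 10.7.3.1 per the file headers and 10.5.1.1 per the submitters' processing notes. The series' value table, also deposited, holds the same log10 ratios, turned on array 2 to colon over blood (largest difference 4.81e-08). Probe positions are on mm9, per the file headers; whether a probe lies in an exon or UTR was not analysed here.

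Each array has 43020 spots that are not controls; 240 and 207 of these were outliers and 0 were saturated. Between 52.9% and 59.6% of these spots were well above background in a pool. Amplification from 25 ng of RNA was primed by oligo-dT, as the labels' protocols state, so probes far from the 3′ end can read low. Both arrays lay on 1 slide with 1 scan, so no batch could be tested; whether they used the same extracts is not stated.

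Signals were corrected with normexp (offset 50) and loess within each array in limma 3.58.1 (R 4.3.3), with control and outlier spots at weight 0, and array 2 was turned. Spots of a probe were averaged, and the brightest probe stood for its gene. Of 39429 probes, 26055 were named through RefSeq accessions, 8652 by the file and 4722 not at all. The number of arrays limits the precision. No p-value was computed. The steps were tested on simulated data with a constant dye difference and as many changes up as down. Such data cannot show which centring is right for these arrays.

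The members and the other lists were chosen with earlier results of these data known. All members are accounted for; those past 2-fold and the highest and lowest of each family are given with their signals, as are the 4 highest other chaperones and the 2 highest of each marker list past 2-fold. Ero1l, Ero1lb, Ly6c2 and Trac were listed but had no probe under these names. Alternatives covered the background correction, centring, software ratios, deposited table, scaling between arrays, probe choice, filter, fold and each array alone.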

Additional observations from a re-analysis of the deposited data

How the results depend on the processing

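Members at least 2-fold higher numbered 20 as reported, 9 under median centring and 18 to 21 under the other changes of processing at the same fold. Over all genes these shares were 14.2%, 7.26% and 8.16% to 20.3%. Members past 1.5-fold numbered 25 and past 3-fold 14, where 22.3% and 8.63% of all measured genes were higher. Members lower were 0 under every alternative, while 1.81% to 13.3% of all genes were lower. Under median centring, however, the mean of Cct2 was -1.10, past 2-fold lower, without passing on each array. The cytosolic median of 1.02 became 1.08 without background correction, 1.22 with an offset of 16, 0.52 under median centring, 1.30 with the software's ratios and with the deposited table, and 0.95 over genes well above background in both pools. Under median centring the ER median was 0.15 and the mitochondrial median 0.79. Leaving out 1 array in turn gave 20 to 21 members higher, 0 to 0 lower, and medians of 0.98 to 1.05 (cytosolic), 0.78 to 0.91 (ER) and 1.48 to 1.58 (mitochondrial). The cytosolic minus ER difference of 0.12 ranged from 0.05 to 0.48 over the alternatives, and the mitochondrial minus cytosolic difference of 0.51 from 0.18 to 0.61. Of all calls, 76.1% were higher as reported, 67.1% under median centring and 60.4% with the software's ratios, which shifted the median of all genes by -0.34 and -0.18. Of the 20 members, 9 kept the call under every alternative that gave them a value (Hspb8 and Serpinh1 have none where both pools must be above background); Hspa2, Hspa8, Dnaja1, Hsp90ab1, Cryab, Hspa5, Hsp90b1, Dnajb9, Hspd1, Hspe1 and Hspa9 lost it under median centring, and Hspa9 also with the software's ratios. Of the 24 others, 22 stayed below; Hspa1l passed with an offset of 16 and with the software's ratios, and Calr without array 1. The cause of these changes was not tested. Signal over background limits Hspb8, Hspa1l and Serpinh1. No paired analysis was possible because the arrays form 1 replicate of 1 comparison.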

Other observations

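Probes of the same gene did not always give the same value. Dnaja1 was at 2.70 by its brightest probe and 1.81 by the other, and Cryab at 1.67 and 0.77, so that Cryab passed 2-fold by 1 of 2 probes. Hspa13 was at 0.53 and 0.09, and Dnaja2 at 0.25 and 0.00. The second probe of Pdia6, at 0.74, lay above its first at 0.46, and that of Dnajb11, at -0.09, was not well above background in either pool. The probes of Hsph1 gave 3.28 and 3.31. Those of Dnajb9 gave 1.15 and 1.18, but the second was at 0.98 on array 1, so that Dnajb9 passed 2-fold on each array by 1 of 2 probes. Among the other chaperones, Dnajb2 was at 3.03 by its brightest probe and 0.92 by the other, and Dnaja4 at 2.93 and 0.35; the dimmer probes were well above background in 2 of 4 readings each.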
